A study of Homo sapiens with 20 samples.

Results

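A set of 10 transcription factor genes of myeloid development and leukemia were followed in HL60 cells, a human promyelocytic leukemia line, namely SPI1, IRF8, GFI1, RUNX1, KLF4, MYB, GATA2, WT1, MEIS1 and EGR1. They were taken by gene symbol and make up 10 of the 28051 named genes in the RNA-seq files. Chromatin regions were taken where the deposited annotation listed one of these genes, which gave 9 of 8286 ATAC-seq regions, for 7 of the 10 genes. GFI1, KLF4 and WT1 had no region among those deposited.

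Blood cell identity is set by transcription factors that compete and cooperate on shared enhancers. SPI1 (the gene of PU.1), GFI1, IRF8 and KLF4 act in the choice between granulocyte and monocyte fates. MYB, GATA2, RUNX1, MEIS1 and WT1 belong to stem and progenitor cells and are often overexpressed or mutated in acute myeloid leukemia, while EGR1 is an immediate early gene that also takes part in monocytic differentiation. All-trans retinoic acid (ATRA), a ligand of the retinoic acid receptors, drives HL60 cells toward neutrophils.

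The study compared cells labelled HK3-null, in which the hexokinase gene HK3 was cut with a lentiviral CRISPR construct, with control cells that carried Cas9, each after 36 h in 1 µM ATRA or in 0.01% DMSO, the diluent. Each of the 4 groups had 3 RNA-seq libraries and 2 ATAC-seq libraries. All HK3-null libraries bore the label KO-2G, and the methods describe single clone populations, so a difference between the genotypes is also a difference between these cell populations and the 2 cannot be told apart. The replicates are called biological in the methods, but nothing says that they were separate clones, so the p-values measure the spread between these samples.

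HK3 itself had normalized counts of 90, 65 and 105 in Cas9 DMSO, 1305, 1298 and 1850 in Cas9 ATRA, 344, 302 and 346 in HK3-null DMSO and 1384, 1285 and 1975 in HK3-null ATRA. HK3-null libraries thus held no less HK3 RNA than Cas9 libraries, and in DMSO they held 3.88-fold more (log2 fold change 1.96 ± 0.21 SE, limma adjusted p = 1.11e-05). Small insertions or deletions cannot be seen in gene counts. HK3 protein and the sequence at the cut site were not analysed here, so these counts do not test the knockout, and HK3-null is used as the label. Normalized counts summed to between 29053838 and 31548189 per RNA library. Cas9 DMSO replicate 1 stood apart with 16750 detected genes, where the remaining libraries had 15031 to 15801, and no call on the 10 genes changed when it was left out. Among ATAC libraries, Cas9 ATRA replicate 2 stood apart with a summed signal of 244488 against 345345 to 390632. Promyelocytic marker genes, 7 of 7 present, summed to between 557124 and 872490 counts per library, while markers of the erythroid line stayed between 20 and 58. Whole chromosomes also differed between the genotypes in DMSO, the median gene of chromosome 5 (575 genes) lying at -0.75 on the log2 scale, of chromosome 6 (670 genes) at 0.52, of chromosome 8 (427 genes) at 1.1, of chromosome 13 at -0.57 and of chromosome 15 at -0.94, with -0.78, 0.57, 1.06, -0.57 and -0.97 in ATRA. MYB lies on chromosome 6 and EGR1 on chromosome 5, and both are also given with the chromosome median subtracted.

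Of the 10 genes, 9 passed the filter on low values, a group mean above 3 on the log2 scale in at least 1 group. MEIS1 did not pass and was not tested. KLF4 passed only through its DMSO groups, where it is high, so counts are also given without it. The text says that a gene passed where its adjusted p was under 0.05, and that it was called where the change was also at least 2-fold. In Cas9 control cells 6 of the 9 genes passed between ATRA and DMSO, 2 higher and 4 lower, against 41.6% of 13256 tested genes (20.3% higher and 21.3% lower), and 4 were called against 9.63%. Without KLF4 these were 5 of 8 passed, 2 higher and 3 lower, and 3 called. In cells labelled HK3-null 7 passed, 3 higher and 4 lower, against 49% (24% higher and 25.1% lower), and 4 were called against 14.1%. Between genotypes in DMSO 5 passed, all higher in HK3-null, against 55% (27.9% higher and 27.1% lower), and 3 were called against 19.3%. Between genotypes in ATRA 6 passed, 5 higher and 1 lower, against 59.1% (29.6% higher and 29.5% lower), and 3 were called against 21.3%, or without KLF4 5 of 8 passed, 4 higher and 1 lower, and 2 called. The shares passing were thus close to the background in the genotype comparisons. The difference between the genotypes in the ATRA response, tested as an interaction, passed for 1 gene, IRF8, against 9.12% of all genes (4.48% higher and 4.64% lower). With the replicate number as a block it passed for 3 genes, IRF8, WT1 and EGR1, against 21.9% of all genes. Under that block 7 of the 9 genes passed between genotypes in DMSO, all higher, against 8842 of 13256 tested genes. For ATRA against DMSO 7 passed in each genotype, against 7409 genes in Cas9 cells and 8126 in cells labelled HK3-null. The other counts in this paragraph had no block. The 2 ATRA comparisons share libraries with the 2 genotype comparisons, so their values are given side by side.

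**Figure D1:**
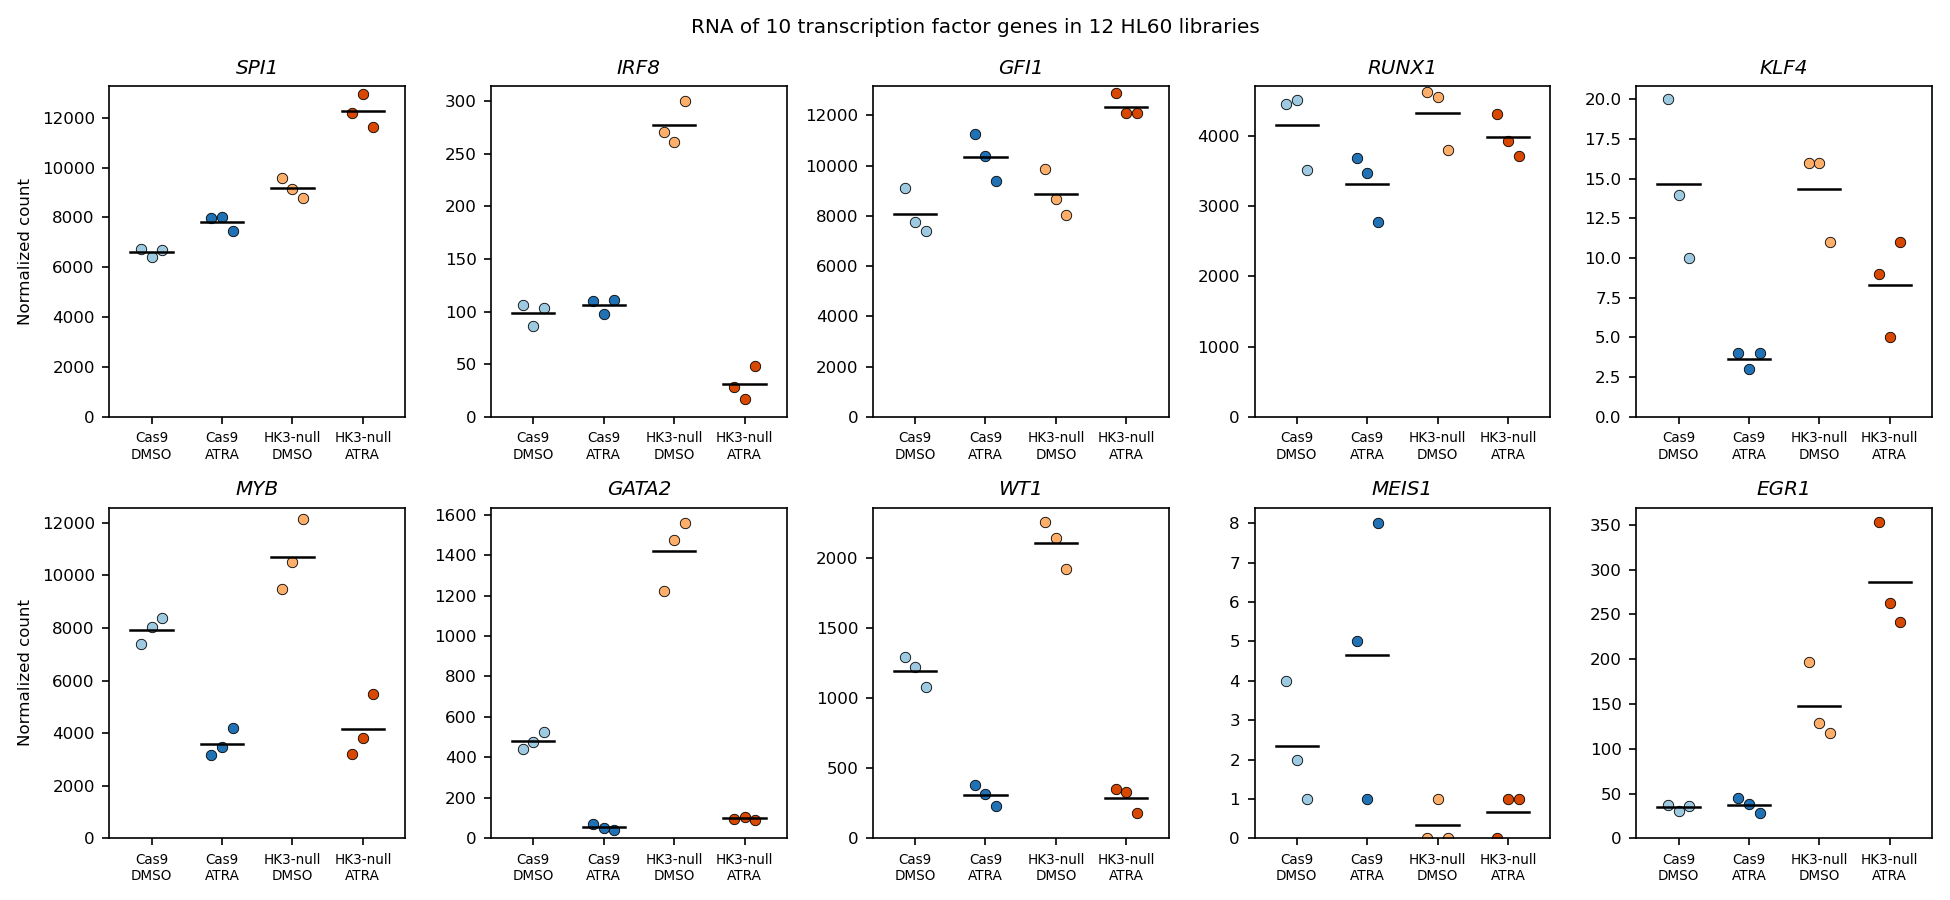
Normalized RNA counts (linear axes from 0) of the 10 genes in 12 libraries of Cas9 control cells and cells labelled HK3-null, in DMSO or ATRA. Points are single libraries and bars are the means of 3. GATA2 and WT1 are low in both ATRA groups, IRF8 is highest in HK3-null DMSO and lowest in HK3-null ATRA, and EGR1 is high in both HK3-null groups.

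SPI1 (chr11:47354860-47378547, hg38) encodes PU.1, the ETS factor needed for granulocytes and monocytes. It had normalized counts of 6749, 6428 and 6713 in Cas9 DMSO, 7980, 8019 and 7473 in Cas9 ATRA, 9578, 9135 and 8782 in HK3-null DMSO and 12198, 12948 and 11614 in HK3-null ATRA. The 4 groups did not overlap, and every HK3-null library was above every Cas9 library. ATRA was accompanied by a 1.18-fold higher level in Cas9 cells (log2 fold change 0.24 ± 0.05 SE, adjusted p = 0.00407) and by a 1.34-fold higher level in cells labelled HK3-null (0.42 ± 0.05, adjusted p = 5.78e-05). Between genotypes SPI1 was 1.38-fold higher in DMSO (0.47 ± 0.05, adjusted p = 2.01e-05) and 1.57-fold higher in ATRA (0.65 ± 0.05, adjusted p = 1.23e-06). These changes were below 2-fold but large against the spread between libraries. The ATRA responses of the genotypes differed by 0.18 on the log2 scale, with a 95% interval from 0.01 to 0.35, and did not pass (adjusted p = 0.189). In bulk samples, less RNA per cell and fewer cells of a type cannot be told apart, and this holds for each gene here.

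IRF8 (chr16:85899162-85922609) encodes an interferon regulatory factor that pairs with PU.1 and favours monocytes over granulocytes. Its normalized counts were 106, 86 and 103 in Cas9 DMSO and 110, 98 and 111 in Cas9 ATRA, 2 groups that overlapped. They were 270, 261 and 300 in HK3-null DMSO and 28, 17 and 48 in HK3-null ATRA, above and below every Cas9 library respectively. In Cas9 cells the change with ATRA was 0.12 on the log2 scale with an interval from -0.52 to 0.76 (adjusted p = 0.787). In cells labelled HK3-null IRF8 was 9.74-fold lower in ATRA (-3.28 ± 0.29 SE, adjusted p = 3.22e-06). Relative to Cas9 cells it was 2.82-fold higher in DMSO (1.5 ± 0.29, adjusted p = 0.00108) and 3.74-fold lower in ATRA (-1.90 ± 0.29, adjusted p = 0.000165). Its ATRA response differed between genotypes by -3.40 on the log2 scale (± 0.41 SE, adjusted p = 0.000421).

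GFI1 (chr1:92473043-92486925) encodes a zinc finger repressor that holds cells to the granulocyte fate. The counts were 9117, 7765 and 7387 in Cas9 DMSO, 11239, 10370 and 9404 in Cas9 ATRA, 9880, 8687 and 8018 in HK3-null DMSO and 12892, 12073 and 12087 in HK3-null ATRA. The HK3-null ATRA libraries were above all others, and the 2 DMSO groups overlapped. GFI1 was 1.28-fold higher with ATRA in Cas9 cells (0.36 ± 0.10 SE, adjusted p = 0.0117) and 1.40-fold higher in cells labelled HK3-null (0.48 ± 0.10, adjusted p = 0.00146). Between genotypes it differed by 0.13 in DMSO (interval from -0.08 to 0.34, adjusted p = 0.267), which passed with the replicate number as a block (adjusted p = 0.021), and by 0.26 in ATRA (interval from 0.05 to 0.47, adjusted p = 0.0361). The difference in ATRA was lost in 9 of 21 alternatives. It was lost without Cas9 ATRA replicate 2 or 3 or without any 1 of the HK3-null ATRA libraries, with log2 fold changes between 0.19 and 0.28 and adjusted p values between 0.0563 and 0.129. It was also lost with no filter, with no variance trend, under the rule asking for a fold of 1.5, and with the chromosome median subtracted (0.21, adjusted p = 0.0812). Those fits had no replicate block, and with the block and all libraries its adjusted p was 0.000341.

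RUNX1 (chr21:34787801-35049302), the DNA-binding subunit of core binding factor and a frequent target of leukemia mutations, varied little. Its counts ran from 3512 to 4512 in Cas9 DMSO, from 2770 to 3692 in Cas9 ATRA, from 3794 to 4620 in HK3-null DMSO and from 3716 to 4319 in HK3-null ATRA, and all pairs of groups overlapped except Cas9 ATRA with either HK3-null group. In Cas9 cells it was 1.26-fold lower in ATRA (-0.33 ± 0.13 SE, adjusted p = 0.0599), and with the replicate block this passed (adjusted p = 0.000296). In cells labelled HK3-null the change was -0.11 (interval from -0.40 to 0.17, adjusted p = 0.495). Genotypes differed by 0.06 in DMSO (interval from -0.22 to 0.34, adjusted p = 0.713) and by 0.28 in ATRA (interval from -0.01 to 0.56, adjusted p = 0.0852), the latter with adjusted p = 0.00065 under the block.

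KLF4 (chr9:107484852-107489769), a zinc finger factor of monocytic differentiation, was near the lower limit of the data. Counts were 20, 14 and 10 in Cas9 DMSO, 4, 3 and 4 in Cas9 ATRA, 16, 16 and 11 in HK3-null DMSO and 9, 5 and 11 in HK3-null ATRA. It was lower with ATRA in Cas9 cells (-1.96 ± 0.41 SE, adjusted p = 0.00262), the groups not overlapping. The filter kept KLF4 only for its high DMSO groups, and the fit with no filter gave an adjusted p of 0.00522. In cells labelled HK3-null the change was -0.84 (interval from -1.73 to 0.06, adjusted p = 0.112), and it passed after quantile normalization (-1.20, adjusted p = 0.033). The genotypes differed by 0.0027 in DMSO (interval from -0.89 to 0.90, adjusted p = 0.998) and by 1.12 in ATRA (adjusted p = 0.0333). The last call rested on counts of 11 or fewer and was lost in 6 of 21 alternatives, 4 of which left out 1 ATRA library each (log2 fold changes from 0.88 to 1.19). Monocyte markers, 6 of 6 present, summed to 211 to 277 counts in Cas9 DMSO, 1490 to 2018 in Cas9 ATRA, 478 to 541 in HK3-null DMSO and 1086 to 1145 in HK3-null ATRA. The markers did not move together. CD14 had mean counts of 3, 2.33, 121.7 and 87.3 in that order of groups, and CSF1R 40, 326.3, 110.7 and 162.3. In ATRA CD14 was thus higher in HK3-null while CSF1R and the sum were lower. The part of the monocyte markers in the KLF4 and IRF8 values was not tested.

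MYB (chr6:135181308-135219172) encodes a factor that keeps progenitors dividing and that falls as myeloid cells mature. Its counts were 7381, 8023 and 8381 in Cas9 DMSO and 3161, 3469 and 4182 in Cas9 ATRA. In cells labelled HK3-null they were 9469, 10514 and 12131 in DMSO and 3210, 3815 and 5494 in ATRA. DMSO and ATRA libraries did not overlap in either genotype, while the 2 ATRA groups did. MYB was 2.21-fold lower with ATRA in Cas9 cells (-1.15 ± 0.17 SE, adjusted p = 0.000311) and 2.62-fold lower in cells labelled HK3-null (-1.39 ± 0.17, adjusted p = 4.8e-05). Between genotypes it was 1.35-fold higher in DMSO (0.43 ± 0.17, adjusted p = 0.0557, with the replicate block 0.00137). With the median of chromosome 6 subtracted that difference was -0.09 (adjusted p = 0.683), so no difference from the other genes of chromosome 6 was detected. In ATRA the difference was 0.18 (interval from -0.20 to 0.57, adjusted p = 0.381), and -0.38 with the chromosome median subtracted (adjusted p = 0.0812).

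GATA2 (chr3:128479422-128493201), a zinc finger factor of stem, progenitor, mast and eosinophil lineage cells, showed the largest ATRA response of the 9 tested genes in each genotype. Its counts were 441, 476 and 527 in Cas9 DMSO, 73, 50 and 41 in Cas9 ATRA, 1222, 1476 and 1559 in HK3-null DMSO and 97, 106 and 91 in HK3-null ATRA. No 2 groups overlapped. With ATRA it was 9.04-fold lower in Cas9 cells (-3.18 ± 0.19 SE, adjusted p = 1.93e-07) and 14.4-fold lower in cells labelled HK3-null (-3.85 ± 0.19, adjusted p = 2.51e-08). Between genotypes it was 2.94-fold higher in DMSO (1.56 ± 0.19, adjusted p = 2.83e-05) and 1.84-fold higher in ATRA (0.88 ± 0.19, adjusted p = 0.00166). The ATRA responses differed by -0.67 (interval from -1.25 to -0.10, adjusted p = 0.155), which passed without Cas9 ATRA replicate 3 (-0.86, adjusted p = 0.0442).

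Eosinophil markers, summed, were lower with ATRA in both genotypes and higher in HK3-null in both treatments, as GATA2 was. In HK3-null ATRA, however, the sum was above that of Cas9 DMSO, whereas GATA2 was below its Cas9 DMSO level. All 6 of the list were present, and their summed counts were 7265 to 8181 in Cas9 DMSO, 514 to 641 in Cas9 ATRA, 163487 to 171188 in HK3-null DMSO and 43837 to 52743 in HK3-null ATRA. IL5RA and PRG3 were at 0 in all Cas9 ATRA libraries, and GATA1 had 6 counts or fewer in every library. PRG2, the eosinophil granule major basic protein gene, made up nearly all of the sum, with a mean of 166090 ± 4001 (SD, n = 3) in HK3-null DMSO against 7723 ± 458 in Cas9 DMSO. It is named here after its values were seen. The part of such cells in the GATA2 values was not tested.

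GATA2-AS1, the antisense gene next to GATA2, is also named after its values were seen. Between genotypes it went the other way from GATA2, with counts of 154, 129 and 156 in Cas9 DMSO, 69, 58 and 79 in Cas9 ATRA, 4, 4 and 2 in HK3-null DMSO and 0, 2 and 0 in HK3-null ATRA. On the log2(count + 1) scale it was lower in HK3-null, with log2 fold changes of -5.12 in DMSO (adjusted p = 2.94e-07) and -5.58 in ATRA (adjusted p = 1.18e-07). On the deposited scale, where zeros weigh heavily, the adjusted p values were 0.0558 and 0.000565. GATA2-AS1 passed the filter on low values only through its Cas9 groups, where it is high. Libraries were directional, but how strand entered the counting is not given in the sources used here, so reads of the gene and its antisense partner may not have been told apart.

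WT1 (chr11:32387775-32435539) encodes a zinc finger factor that leukemic blasts often overexpress. Its counts were 1295, 1221 and 1077 in Cas9 DMSO, 379, 319 and 228 in Cas9 ATRA, 2258, 2144 and 1926 in HK3-null DMSO and 354, 328 and 179 in HK3-null ATRA. The 2 ATRA groups overlapped, and all ATRA libraries were below all DMSO libraries. WT1 was 3.95-fold lower with ATRA in Cas9 cells (-1.98 ± 0.24 SE, adjusted p = 6.42e-05) and 7.66-fold lower in cells labelled HK3-null (-2.94 ± 0.24, adjusted p = 1.76e-06). In DMSO it was 1.76-fold higher in HK3-null (0.82 ± 0.24, adjusted p = 0.0135, with the replicate block 0.000365). That difference did not pass without the filter on low values (adjusted p = 0.0599, no block). In ATRA the genotypes differed by -0.14 (interval from -0.67 to 0.40, adjusted p = 0.651). The interaction was -0.95 ± 0.34 (adjusted p = 0.12), and 0.00624 with the replicate block.

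MEIS1 (chr2:66435125-66573869), a homeobox partner of HOXA9 in leukemia stem cells, was barely detected. Counts were 4, 2 and 1 in Cas9 DMSO, 5, 1 and 8 in Cas9 ATRA, 0, 1 and 0 in HK3-null DMSO and 0, 1 and 1 in HK3-null ATRA. In 3 of the 4 groups the means were under 3 counts, the floor used here, and no fold is given.

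EGR1 (chr5:138465479-138469303), a zinc finger factor switched on by growth factor and stress signals, was low in Cas9 cells with counts of 37, 31 and 36 in DMSO and 45, 38 and 28 in ATRA. In cells labelled HK3-null the counts were 197, 129 and 117 in DMSO and 353, 263 and 242 in ATRA. Every HK3-null library was above every Cas9 library, and the 2 HK3-null groups did not overlap. EGR1 was 4.16-fold higher in HK3-null in DMSO (2.06 ± 0.24 SE, adjusted p = 2.46e-05) and 7.77-fold higher in ATRA (2.96 ± 0.24, adjusted p = 1.13e-06), although its chromosome as a whole was lower in HK3-null. With the chromosome median subtracted the differences were 2.81 and 3.74. With ATRA it was 1.96-fold higher in cells labelled HK3-null (0.97 ± 0.24, adjusted p = 0.00587), and it differed by 0.07 in Cas9 cells (interval from -0.46 to 0.60, adjusted p = 0.848). The interaction of 0.90 ± 0.34 did not pass (adjusted p = 0.144), but did with the replicate block (adjusted p = 0.0186).

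**Figure D2:**
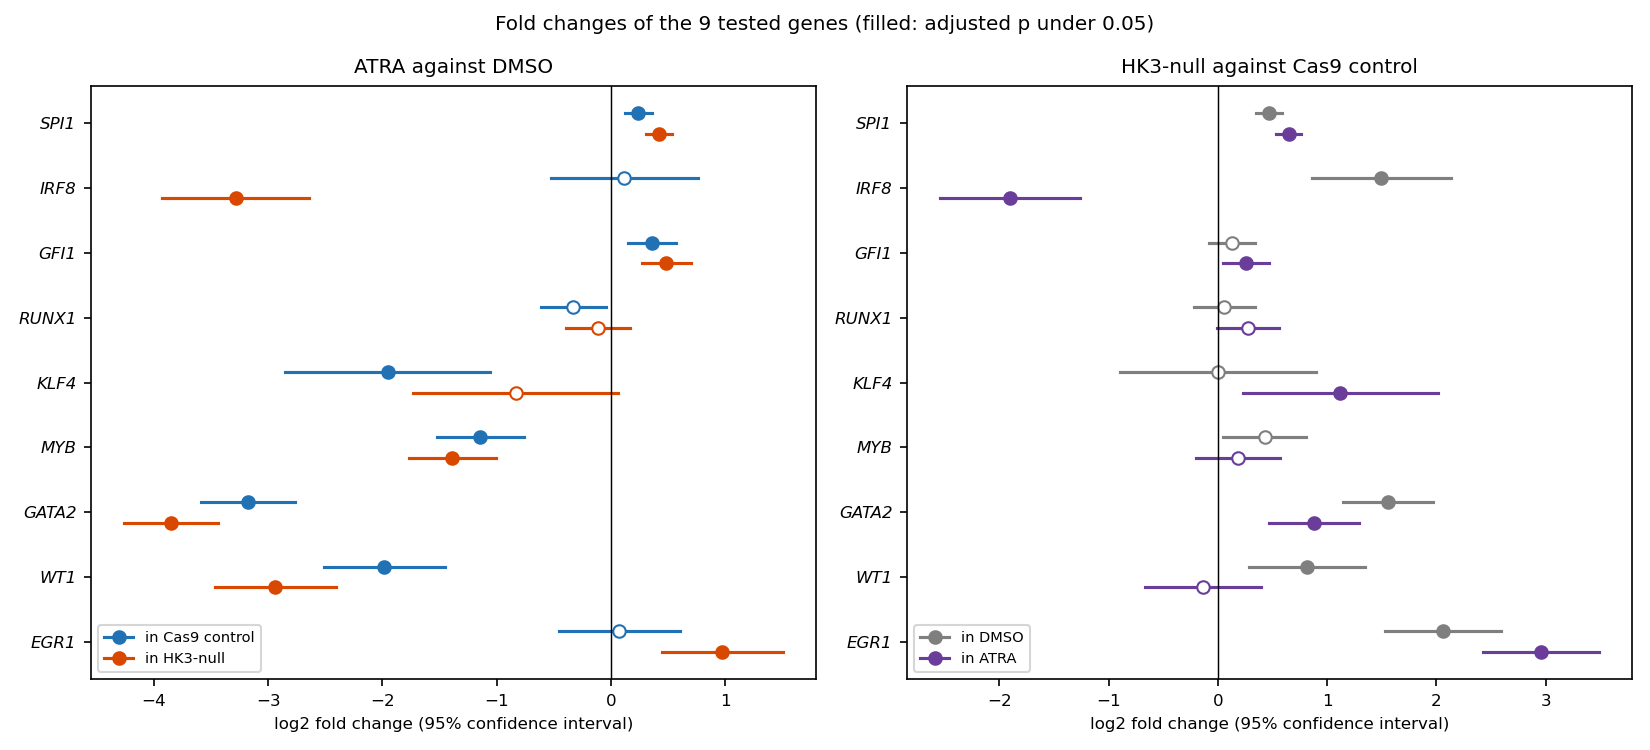
Log2 fold changes (points) with 95% confidence intervals (lines) of the 9 tested genes, for ATRA against DMSO in each genotype (left) and for HK3-null against Cas9 control in each treatment (right). Filled points have an adjusted p under 0.05. IRF8 lies at -3.28 in HK3-null and 0.12 in Cas9 on the left and changes side on the right, from 1.5 in DMSO to -1.90 in ATRA.

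Chromatin accessibility was read at the 9 regions in 8 libraries. Every one of the 8286 deposited regions differed at least 1.5-fold between genotypes in ATRA, so the list is a selection on that contrast and ATRA values are given with no test. The genotypes were tested in DMSO only, where a region counted as called if its adjusted p was under 0.05 and it changed at least 1.5-fold, as 86.6% of the 6214 tested regions did (42.7% higher and 43.9% lower in HK3-null). Of the 9 regions 8 were tested and 7 called, 5 higher and 2 lower, a share near that background. Selection was on the same cell populations, and 7576 of the 8286 regions were also at least 1.5-fold apart between genotypes in DMSO. The DMSO tests are thus not free of the selection, and their p-values only describe these regions. Chromosome medians of regions, subtracted below, are medians of this selected list as well.

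The 3 windows below are shown because they belong to regions with large changes between genotypes, or to a gene whose RNA was too low to test. Each is the central 300 bases of its region on the plus strand of hg38, and capitals mark matches on either strand to the motifs named below.
GATA2 upstream, chr3:128497633-128497932: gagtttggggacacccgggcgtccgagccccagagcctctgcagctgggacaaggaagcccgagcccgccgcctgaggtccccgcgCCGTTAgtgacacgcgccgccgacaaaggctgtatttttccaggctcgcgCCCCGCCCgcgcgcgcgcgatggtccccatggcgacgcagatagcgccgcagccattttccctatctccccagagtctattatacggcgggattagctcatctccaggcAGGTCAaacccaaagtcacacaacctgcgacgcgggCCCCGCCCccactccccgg
IRF8 intronic, chr16:85915175-85915474: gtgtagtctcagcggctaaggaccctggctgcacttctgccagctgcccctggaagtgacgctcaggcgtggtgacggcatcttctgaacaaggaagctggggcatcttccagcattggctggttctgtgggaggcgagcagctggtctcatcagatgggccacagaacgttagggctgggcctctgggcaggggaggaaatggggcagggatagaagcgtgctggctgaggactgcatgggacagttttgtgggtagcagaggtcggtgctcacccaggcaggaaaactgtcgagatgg
MEIS1 intronic, chr2:66481218-66481517: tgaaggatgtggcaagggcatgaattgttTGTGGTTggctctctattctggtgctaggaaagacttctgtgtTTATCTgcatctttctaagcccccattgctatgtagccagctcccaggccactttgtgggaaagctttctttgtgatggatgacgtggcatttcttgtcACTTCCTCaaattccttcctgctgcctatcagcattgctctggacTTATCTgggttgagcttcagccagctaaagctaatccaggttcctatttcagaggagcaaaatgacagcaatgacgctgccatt

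The motifs searched were GAGGAAGT for PU.1, CCGGAAGT for other ETS factors, TGTGGTT for RUNX, AGATAA for GATA factors, TAACNG for MYB, GAAANNGAA for IRF, GCGTGGGCG for EGR, GGGCGGGG for KLF and SP factors, GGGTGTGG for KLF4, TTGCNNNAA for CEBP, AGGTCA for the core that retinoic acid receptors read, and the CArG box of SRF. GGGTGTGG can overlap TGTGGTT, and GCGTGGGCG can overlap GGGCGGGG, but no matches overlapped in the printed windows. The GATA2 window held GGGCGGGG 2 times on the minus strand, TAACNG 1 time and AGGTCA 1 time, and these letters occur in 7.81%, 24.7% and 17.8% of 7722 regions of at least 300 bases. The MEIS1 window held TGTGGTT, GAGGAAGT and AGATAA (2 times), found in 13.5%, 8.91% and 11.8% of regions. The IRF8 window held none of these letters. Among the windows that are not printed, that of the other IRF8 region held AGATAA and GAGGAAGT, that of the MYB region GAGGAAGT and GAAANNGAA, that of the upstream SPI1 region TAACNG, and that of the EGR1 region none. A match is a description of the sequence and not a binding site.

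The GATA2 region (chr3:128497525-128498039) lies 4.6 kb upstream of the gene's start, in an intron of GATA2-AS1. Its normalized signals were 1.44 and 1.88 in Cas9 DMSO, 1.17 and 0 in Cas9 ATRA, 48.1 and 37.6 in HK3-null DMSO and 32.7 and 37.3 in HK3-null ATRA. It was nearly closed in all Cas9 libraries and open in all HK3-null libraries, with a log2 difference of 4.04 ± 0.53 SE in DMSO on the log2(signal + 1) scale (adjusted p = 3.91e-08). The region reached the mean signal of 17.1 needed for the test only through its HK3-null groups, where it is high. The fit with no filter gave an adjusted p of 7.79e-07. GATA2 RNA was higher in HK3-null too, but it fell with ATRA in both genotypes while the signal of this region in HK3-null was 42.8 in DMSO and 35.0 in ATRA on average.

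SPI1 had 2 regions. The intronic region (chr11:47360975-47361393, 17.4 kb downstream of the start) had signals of 50.1 and 43.2 in Cas9 DMSO, 28.8 and 21.4 in Cas9 ATRA, 169 and 140.4 in HK3-null DMSO and 69.6 and 79.7 in HK3-null ATRA. In DMSO it was more open in HK3-null by 1.71 ± 0.30 on the log2 scale (adjusted p = 5.49e-06), the groups far apart. With ATRA its mean signal was lower in both genotypes, whereas SPI1 RNA was higher. The other region (chr11:47391038-47391489, 12.7 kb upstream, within SLC39A13-AS1) had signals of 144.1 and 146.7 in Cas9 DMSO and 223.8 and 222.4 in HK3-null DMSO, and differed by 0.61 ± 0.28 (adjusted p = 0.0372). That call was lost when any 1 of the 4 DMSO libraries was left out (log2 differences from 0.60 to 0.63, adjusted p from 0.13 to 0.169), and with the median of chromosome 11 subtracted (0.41, adjusted p = 0.218).

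IRF8 had 2 regions within the gene, 15 and 16.2 kb from its start. The first (chr16:85913847-85914441) overlaps an annotated exon and UTR of IRF8, and its signals were 37.2 and 46.7 in Cas9 DMSO, 35.8 and 23.1 in Cas9 ATRA, 9.79 and 5.90 in HK3-null DMSO and 3.18 and 3.47 in HK3-null ATRA. In DMSO it was less open in HK3-null by -2.31 ± 0.43 on the log2 scale (adjusted p = 1.56e-05). This region passed the signal filter only through its Cas9 groups, where it is high, and with no filter the adjusted p was 4.09e-05. The second (chr16:85915157-85915491, intronic) had signals of 28.5 and 37.4 in Cas9 DMSO and 4.27 and 3.55 in HK3-null DMSO, and fell below the mean signal of 17.1 needed for the test. Without that filter it differed by -2.78 ± 0.48 (adjusted p = 2.57e-05). In DMSO the RNA of IRF8 was higher in HK3-null while both regions were less open, and in ATRA RNA and both regions were lower.

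The MEIS1 region (chr2:66481110-66481624) is intronic, 46.2 kb from the start. Signals were 27.2 and 35.9 in Cas9 DMSO, 51.9 and 33.8 in Cas9 ATRA, 13 and 12.8 in HK3-null DMSO and 13.1 and 10.3 in HK3-null ATRA. The region passed the signal filter only through its Cas9 groups, where it is high. With no filter its DMSO difference had an adjusted p of 0.00403. It was less open in HK3-null in DMSO by -1.21 ± 0.38 (adjusted p = 0.0037), the groups not overlapping, and did not pass without Cas9 DMSO replicate 2 (-1.02, adjusted p = 0.0572).

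The EGR1 region (chr5:138459319-138459703) lies 6.0 kb upstream of the gene. It had signals of 31.3 and 57.0 in Cas9 DMSO, 21.8 and 19.8 in Cas9 ATRA, 65.4 and 75.8 in HK3-null DMSO and 79.4 and 57.2 in HK3-null ATRA. The DMSO groups did not overlap and differed by 0.72 ± 0.33 (adjusted p = 0.0386), a call lost without Cas9 DMSO replicate 1 (0.30, adjusted p = 0.51) or either HK3-null DMSO library (0.83 and 0.62, adjusted p = 0.0863 and 0.197). Regions of chromosome 5 had a median of -1.54 in this comparison, and with it subtracted the difference was 2.26.

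The MYB region (chr6:135209748-135210214) is intronic, 28.7 kb from the start, with signals of 67.4 and 69.8 in Cas9 DMSO, 64.4 and 40.5 in Cas9 ATRA, 131.8 and 120.6 in HK3-null DMSO and 104.9 and 143.3 in HK3-null ATRA. It was more open in HK3-null in DMSO by 0.87 ± 0.30 (adjusted p = 0.00749), but not without HK3-null DMSO replicate 1 (0.81, adjusted p = 0.0771). Regions of chromosome 6 had a median of 1.06, and with it subtracted the difference was -0.19 (adjusted p = 0.616).

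The RUNX1 region (chr21:34967528-34967870) lies in an intron, 81.6 kb from the start, and held 1 match to TGTGGTT on the minus strand. Its signals were 37.2 and 34.2 in Cas9 DMSO, 6.40 and 6.70 in Cas9 ATRA, 49.7 and 61.2 in HK3-null DMSO and 27.0 and 29.2 in HK3-null ATRA. In DMSO it differed by 0.61 ± 0.35 (interval from -0.10 to 1.32, adjusted p = 0.0972). Regions of chromosome 21 had a median of -1.34, while the median gene of that chromosome lay at -0.02 in RNA in DMSO. With the region median subtracted the difference was 1.95 (adjusted p = 1.02e-05). That median comes from regions selected on the genotype difference in ATRA, so the subtracted value is not a corrected estimate. Its mean signal was 5.45-fold lower in ATRA than in DMSO in Cas9 cells and 1.97-fold lower in cells labelled HK3-null. The region was selected for its genotype difference in ATRA, so these folds are not free of that selection, and they were not tested.

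**Figure D3:**
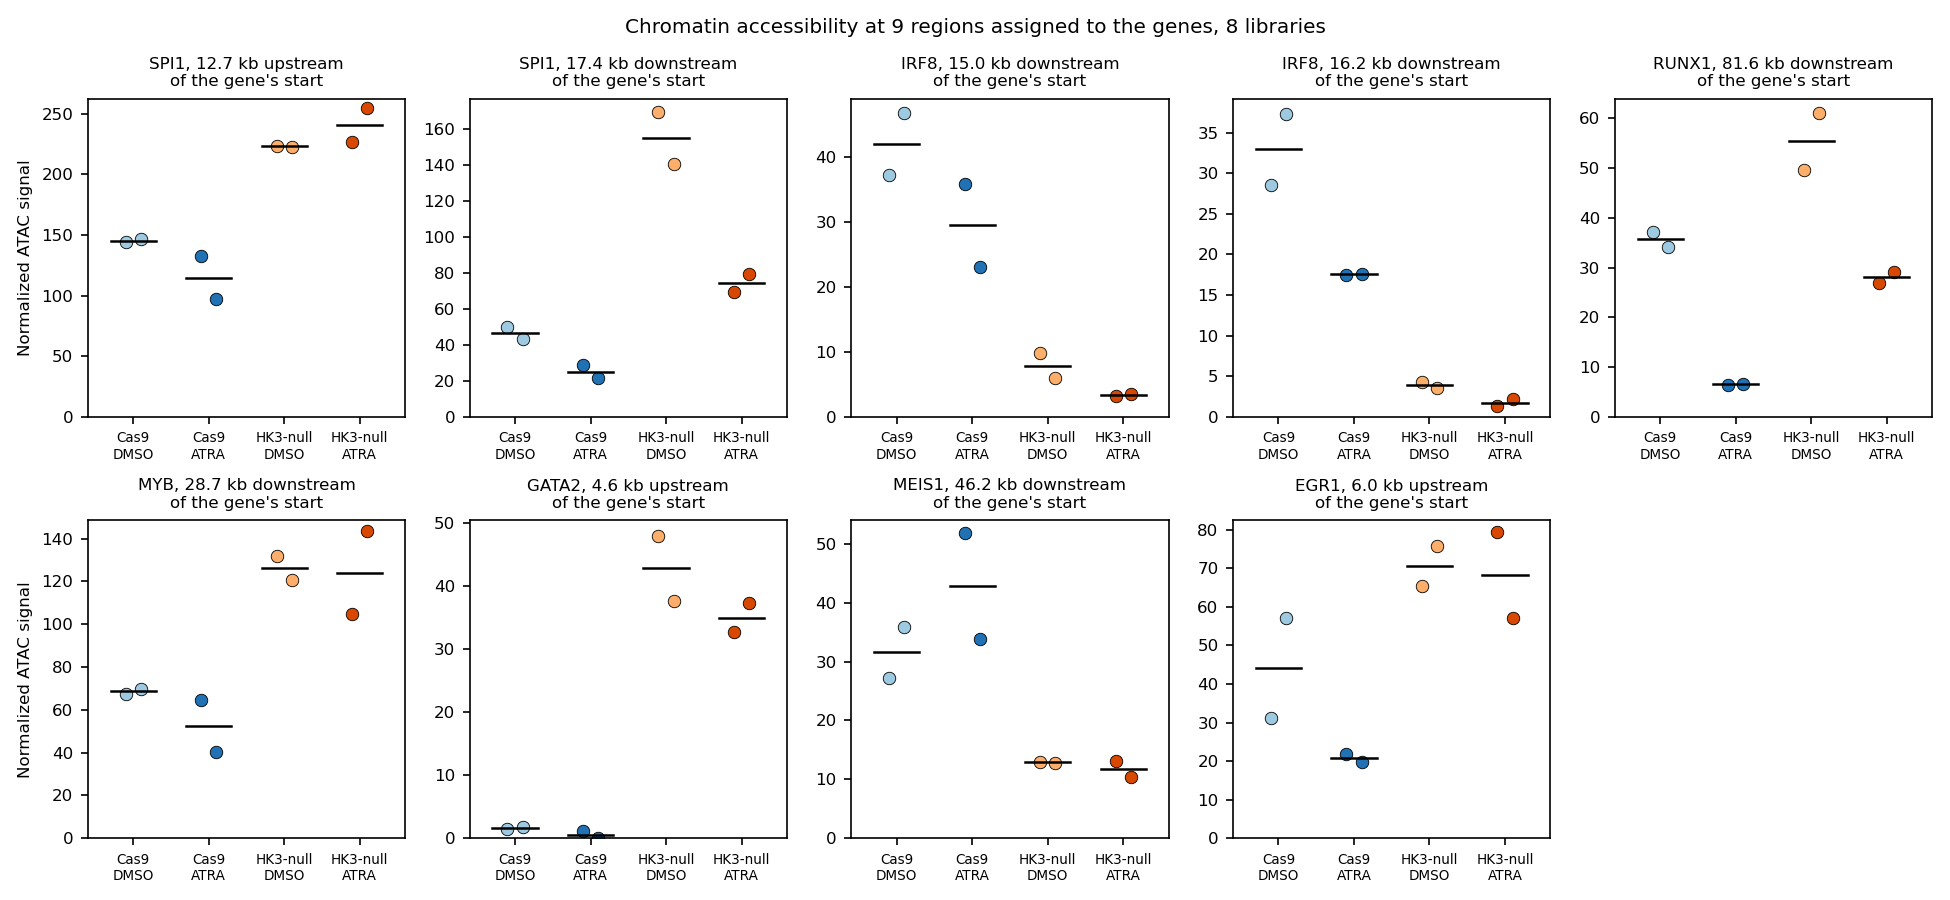
Normalized ATAC-seq signal (linear axes from 0) at the 9 regions in 8 libraries, with the distance of each region's centre from the start of its gene. Points are single libraries and bars the means of 2. The GATA2 region lies between 0 and 1.88 in the Cas9 libraries and between 32.7 and 48.1 in the HK3-null libraries, and both IRF8 regions are lower in HK3-null.

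Known target genes of PU.1 and IRF8 were looked at as a list, as were the relatives, partners and other programs of the 10 factors. The lists were chosen with earlier results of these data known. Unlike the counts without KLF4 above, the list counts include genes that passed the filter on low values only through groups where they are high. Among those named below, CD74, CD14, EGR3 and KLF11 passed it only through their HK3-null groups. Between genotypes such a gene can count as higher in HK3-null but hardly as lower, so the list counts are not free of the filter. Of 27 tested PU.1 and IRF8 targets 21 were higher and 1 lower with ATRA in Cas9 cells, and 20 were higher and 3 lower in cells labelled HK3-null, with median log2 fold changes of 0.77 and 1.21 against 0.00 and 0.01 over all tested genes. Between genotypes 21 were higher and 2 lower in DMSO (median 1.16 against 0.0026), and 22 were higher and 4 lower in ATRA (median 1.14 against 0.01). In the order given, 81.5%, 85.2%, 85.2% and 96.3% of the list passed, against 41.6%, 49%, 55% and 59.1% of all tested genes. CYBB, the catalytic subunit of the phagocyte NADPH oxidase, had mean counts of 224 ± 38.4 (SD, n = 3) in Cas9 DMSO, 6085 ± 287 in Cas9 ATRA, 8180 ± 678 in HK3-null DMSO and 45698 ± 1780 in HK3-null ATRA. LSP1, a leukocyte actin-binding protein, ran from 201.3 ± 14.2 over 4190 ± 337 and 4734 ± 163 to 23529 ± 690.3 in the same order of groups. LYZ, lysozyme, was higher in HK3-null in ATRA (log2 fold change 4.02, adjusted p = 5.2e-12), at 27534 ± 1641 against 1700 ± 74.4. CD74, the invariant chain of MHC class II, had 539 ± 38.4 counts in HK3-null DMSO against 7 ± 9.54 in Cas9 DMSO, and CD14, a monocyte receptor, 121.7 ± 4.93 against 3 ± 1. Both are genes of chromosome 5, whose median was lower in HK3-null. The ATRA responses passed as different between genotypes for 7 of the 27 in the higher and 9 in the lower direction. These were 59.3% of the list, against 9.12% of all tested genes.

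All 8 granulocyte maturation markers were present, and their summed counts were 2086 to 2153 in Cas9 DMSO, 19800 to 21573 in Cas9 ATRA, 12515 to 14240 in HK3-null DMSO and 77043 to 82273 in HK3-null ATRA. At least ITGAM and CYBB are also in the list of PU.1 and IRF8 targets, so the lists are not separate. CYBB alone had means of 8180 in HK3-null DMSO and 45698 in HK3-null ATRA. The part of these markers in the results above was not tested.

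EGR1 belongs to the immediate early genes, and others of that class were compared as a list. Of 22 tested, 11 were higher and 3 lower in HK3-null in DMSO (median 0.57), and 14 were higher and 2 lower in ATRA (median 0.91). These were 63.6% and 72.7% of the list, where 55% and 59.1% of all tested genes passed with medians of 0.0026 and 0.01. FOS, a subunit of AP-1, was at 295 ± 23.3 in HK3-null ATRA against 21.3 ± 7.02 in Cas9 ATRA (log2 fold change 3.84, adjusted p = 5.73e-07). BTG2, an antiproliferative gene, was at 1213 ± 347 against 108 ± 7 (3.45, adjusted p = 3.34e-06). EGR3, a relative of EGR1, had no count in any Cas9 DMSO library and a mean of 63.7 ± 39.2 in HK3-null DMSO, at least 21.2-fold higher against a floor of 3 counts per library. EGR3 lies on chromosome 8, whose median was higher in HK3-null. With ATRA 4 of the 22 were higher and 4 lower in Cas9 cells, and 8 were higher and 1 lower in cells labelled HK3-null, with medians of 0.11 and 0.31, or 36.4% and 40.9% passing against 41.6% and 49% of all tested genes. DUSP6, a phosphatase acting on ERK, went with ATRA from 1297 ± 133 to 4653 ± 395 in Cas9 cells (1.85, adjusted p = 3.77e-08) and from 1024 ± 45.6 to 4222 ± 299 in cells labelled HK3-null (2.04, adjusted p = 1.07e-08), and these responses did not pass as different (interaction 0.20, adjusted p = 0.416).

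Among 15 tested progenitor genes and MYB targets, 8 were lower and 1 higher with ATRA in Cas9 cells, and 8 were lower and 4 higher in cells labelled HK3-null. MYC fell from 47955 ± 5125 to 11508 ± 1646 counts in Cas9 cells (-2.06, adjusted p = 6.97e-07) and from 50303 ± 4564 to 6727 ± 1161 in cells labelled HK3-null (-2.91, adjusted p = 2.73e-08). BCL2, an inhibitor of apoptosis, fell from 1923 ± 106 to 629.7 ± 22.5 (-1.61, adjusted p = 3.37e-09) and from 3233 ± 142 to 493 ± 2.65 (-2.71, adjusted p = 7.76e-11). Between genotypes the list was divided, with 3 higher and 5 lower in DMSO and 4 higher and 6 lower in ATRA. The median log2 fold change was -0.29 in both ATRA comparisons, -0.0019 between genotypes in DMSO and -0.07 in ATRA. The shares passing were 60%, 80%, 53.3% and 66.7%, against 41.6%, 49%, 55% and 59.1% of all tested genes. CTSG, the azurophil granule protease cathepsin G, was lower in HK3-null in both, at 3461 ± 86.4 against 11932 ± 474 in DMSO (-1.78, adjusted p = 3.41e-08).

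Of 10 tested genes known to be repressed by GFI1, 6 were higher and 0 lower with ATRA in Cas9 cells and 7 were higher and 0 lower in cells labelled HK3-null, in which GFI1 itself was also higher. ID1, an inhibitor of DNA binding, rose from 6 ± 2.65 to 217.7 ± 4.04 counts in Cas9 cells (5.27, adjusted p = 3.73e-07). It passed the filter on low values only through its ATRA groups, where it is high, and its fold starts from a DMSO mean of 6 counts. SOCS1, an inhibitor of cytokine signalling, rose from 27.7 ± 12.6 to 265.7 ± 41.3 in cells labelled HK3-null (3.36, adjusted p = 2.58e-05). Between genotypes 3 were higher and 1 lower in DMSO, and 4 were higher and 2 lower in ATRA. The 4 medians, in the order given, were 1.34, 2.05, 0.99 and 0.60. The shares passing were 60%, 70%, 40% and 60%, against 41.6%, 49%, 55% and 59.1% of all tested genes. Between genotypes they were thus near or below that background.

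Relatives of the 10 factors, 25 tested, were higher for 9 and lower for 3 with ATRA in Cas9 cells, and 12 and 3 in cells labelled HK3-null. RUNX3 went from 2811 ± 230 to 7056 ± 1068 in Cas9 cells (1.32, adjusted p = 4.29e-05). IRF1, an interferon response factor, went from 818.3 ± 61.1 to 4723 ± 399 in Cas9 cells (2.53, adjusted p = 7.65e-09) and from 371.7 ± 34.5 to 2979 ± 344 in cells labelled HK3-null (3, adjusted p = 1.89e-09). Between genotypes 9 were higher and 2 lower in DMSO, and 8 were higher and 2 lower in ATRA. Medians were 0.35, 0.74, 0.09 and 0.33 in the same order. The shares passing were 48%, 60%, 44% and 40%, against 41.6%, 49%, 55% and 59.1% of all tested genes. Between genotypes fewer thus passed than over all tested genes. KLF11 had mean counts of 0.67 in Cas9 DMSO and 836.3 ± 239 in HK3-null DMSO.

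Partners and cofactors, 29 tested, had 3 higher and 10 lower with ATRA in Cas9 cells and 9 higher and 8 lower in cells labelled HK3-null. ERG, an ETS factor of stem cells, fell from 95.7 ± 2.52 to 28.0 ± 8 in Cas9 cells (-1.81, adjusted p = 8.28e-05). Between genotypes 7 were higher and 5 lower in DMSO and 12 and 5 in ATRA, and 2 of those with the largest changes, PBX2 and HDAC2, lie on chromosome 6. The medians of this list stayed between -0.23 and 0.15, and 44.8%, 58.6%, 41.4% and 58.6% passed, against 41.6%, 49%, 55% and 59.1% of all tested genes. Of 11 tested genes of the HOX, MEIS1 and WT1 leukemia list, 1 was higher and 3 lower with ATRA in Cas9 cells, 4 and 3 in cells labelled HK3-null, 2 and 3 between genotypes in DMSO and 5 and 2 in ATRA, with medians of -0.02, 0.29, -0.0019 and 0.23 and shares passing of 36.4%, 63.6%, 45.5% and 63.6%. HOXA10 was lower in HK3-null, at 7 ± 3 counts against 62.3 ± 19.6 in DMSO (-3.20, adjusted p = 0.000734) and 3 ± 2 against 63.0 ± 25.5 in ATRA (adjusted p = 4.16e-05). It passed the filter on low values only through its Cas9 groups, where it is high, so these p-values are not free of that filter.

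**Figure D4:**
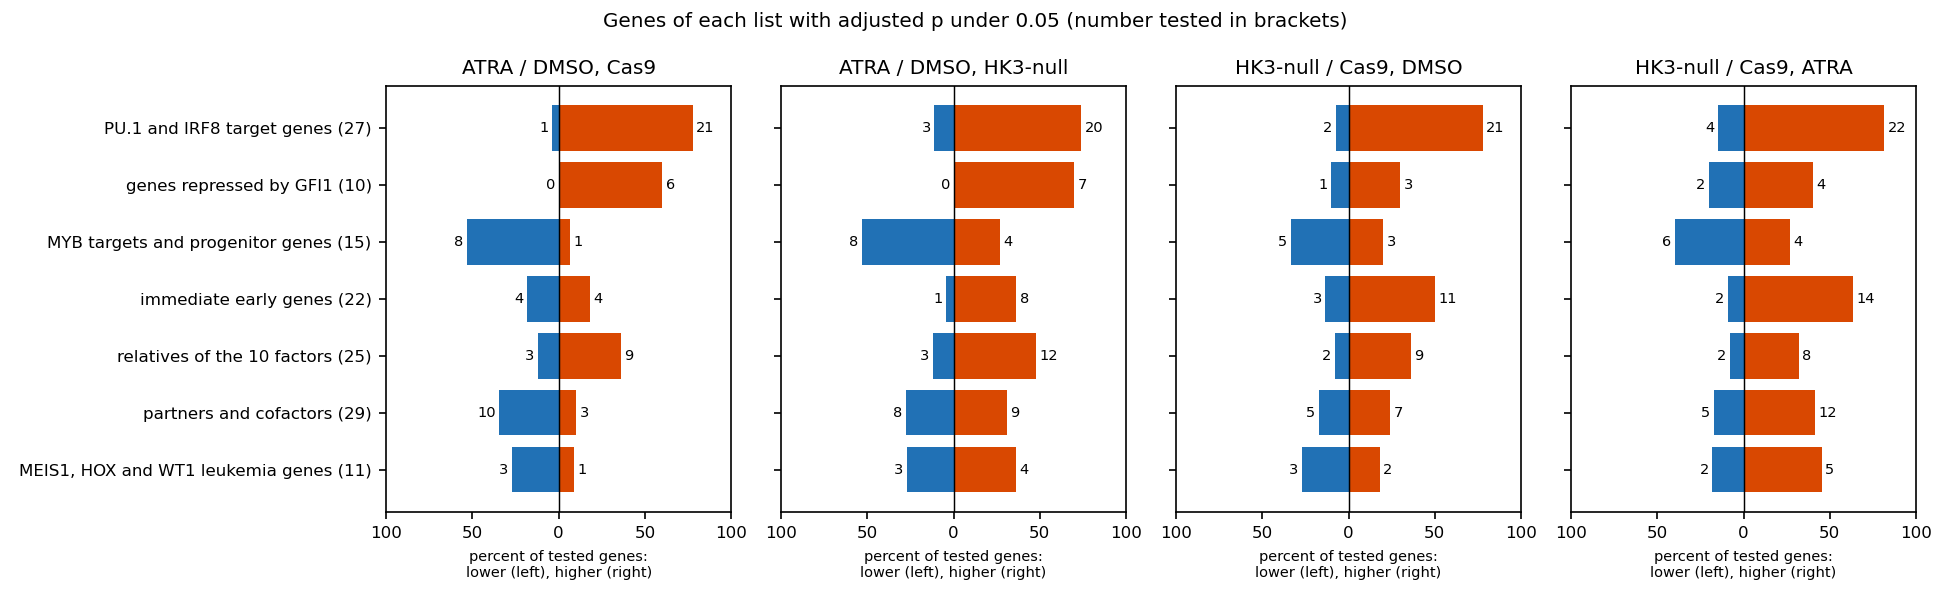
Percent of the tested genes of 7 lists that passed at an adjusted p under 0.05, higher to the right and lower to the left, in 4 comparisons, with the number of genes at each bar. PU.1 and IRF8 target genes, relatives of the factors and GFI1-repressed genes have more genes higher than lower in each of the 4 comparisons, and immediate early genes do so in all but ATRA in Cas9 cells.

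The genes whose pattern was most like that of each factor were found by Pearson correlation of log2 values over the 12 libraries, among 11252 genes. The libraries form 4 groups, so r mostly reflects the order of the group means. SPI1 was most like CTSA (r = 0.995), followed by PSAP and WWP2 (0.994 and 0.993). GATA2 was closest to XPO5 (r = 0.992), WT1 to PODXL2 and SLC39A3 (both 0.996), and EGR1 to PLOD1 (0.99). MYB was closest to GJA3 (0.978), GFI1 to MIDN (0.979) and RUNX1 to PAPOLA (0.968). IRF8 was closest to SLAMF6 (0.966) and then to its relative IRF5 (0.943).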

How the data were processed

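RNA-seq and ATAC-seq libraries of HL60 cells were analysed from the processed values. Per the file headers and the values themselves, the authors deposited log2 expression values per gene, which are log2 of whole normalized counts within a relative tolerance of 1e-04 and are not scaled by gene length, although the methods mention RPKM. The submitters' processing notes name DESeq2, MACS2, GRCh38 and hg38. For ATAC-seq the authors deposited a normalized signal per region. Depth before scaling is not given in the sources used here, so no counting interval was computed, and the number of libraries limits the precision.

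Log2 values were fitted with limma 3.58.1 (trend in the variance prior, R 4.3.3), with 1 mean for each of the 4 groups, for the 13256 of 28051 genes above a group mean of 3 in at least 1 group. Signals were fitted as log2(signal + 1) for the 6214 regions above the 25th percentile of mean signal (17.1). P-values were adjusted by the Benjamini-Hochberg method over all features tested, and intervals are at 95%. Rows that name no gene, up to 0.00926% of a library's counts, were left out. Scripts were tested on simulated data.

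RNA replicate numbers, given in the labels, paired the libraries: deviations from the group means correlated with r from 0.178 to 0.631 in all 18 same-numbered pairs over 10667 genes, so blocked values are given where they change a call. The main fit and the list counts had no block and so ignore this pairing. ATAC numbers did not pair (r = 0.054 between the DMSO groups).

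The 10 genes and the gene lists were chosen with earlier results of these data known. List genes were named by rule, the 4 with the largest change among those that passed in a list and comparison with a group mean of at least 50 counts, and the text gives some of these. Motifs were searched with Python 3.11.15 on both strands, and positions were read against GENCODE release 44 and RefSeq. Alternatives were a looser or no filter, log2(count + 1), quantile normalization, the replicate block, only the groups compared, no variance trend, chromosome medians subtracted, a looser call rule and leaving out each library. One marker gene and 1 sequence window are not reported here, and of the other windows the text prints 3.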

Additional observations from a re-analysis of the deposited data

Results flagged for a closer look

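The ATRA response of IRF8 differed between cells labelled HK3-null and Cas9 control cells, with an interaction of -3.40 on the log2 scale (± 0.41 SE, limma adjusted p = 0.000421). All 3 HK3-null ATRA libraries (28, 17 and 48 counts) were below all 3 HK3-null DMSO libraries (270, 261 and 300), while the Cas9 groups overlapped.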

How the results depend on the processing

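Of 1040 values recomputed for the genes and regions, 968 kept their direction and side of the threshold, 32 lost and 24 gained a call, and 16 changed sign. With an unadjusted p under 0.05 and a fold of 1.5, 2782, 3758, 4454 and 5007 genes were called in place of 1276, 1871, 2553 and 2822 (ATRA in Cas9, ATRA in HK3-null, genotype in DMSO, genotype in ATRA), 5 of the 9 genes were called between genotypes in ATRA, and 4 passed the interaction. With the replicate block, 3 genes passed the interaction, and in ATAC-seq, whose numbers did not pair, the SPI1 upstream region no longer passed (adjusted p = 0.0733). With chromosome medians subtracted, 3410 regions were called in place of 5382, and MYB turned to -0.093 in DMSO, -0.38 in ATRA and -0.19 at its region. Quantile normalization turned IRF8 (-0.12) and EGR1 (-0.24) with ATRA in Cas9 cells and KLF4 between genotypes in DMSO (-0.16), none of which passed, and KLF4 with ATRA in HK3-null passed (-1.20, adjusted p = 0.033). Leaving out 1 library, the interaction passed for 1 to 2 genes (2 without Cas9 ATRA replicate 3), 2 to 3 genes were called between genotypes in ATRA and 4 to 8 regions were called (4 without HK3-null DMSO replicate 1). Across these omissions EGR1 with ATRA in Cas9 cells ranged from -0.084 to 0.26, and between genotypes KLF4 in DMSO from -0.24 to 0.26, RUNX1 in DMSO from -0.057 to 0.15, MYB in ATRA from -0.033 to 0.36 and WT1 in ATRA from -0.34 to 0.17. RUNX1 with ATRA in Cas9 cells passed without Cas9 ATRA replicate 1 (adjusted p = 0.0365) or Cas9 DMSO replicate 3 (0.0179), and MYB between genotypes in DMSO passed without Cas9 ATRA replicate 3 (0.0496), HK3-null ATRA replicate 1 (0.0309) or replicate 3 (0.0108). The causes were not tested. MEIS1 was tested only under looser filters (adjusted p = 0.238 between genotypes in DMSO with none).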

Other observations

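WT1-AS, the antisense gene next to WT1, was looked at after its values were seen. It had normalized counts of 202, 138 and 168 in Cas9 DMSO, 57, 64 and 55 in Cas9 ATRA, 499, 486 and 483 in HK3-null DMSO and 112, 85 and 96 in HK3-null ATRA. The 4 groups did not overlap. It was lower with ATRA in Cas9 cells (log2 fold change -1.51, limma adjusted p = 1.63e-05) and in cells labelled HK3-null (-2.33, adjusted p = 2.91e-07), and higher in HK3-null in DMSO (1.55, adjusted p = 6.45e-06) and in ATRA (0.73, adjusted p = 0.00165). How strand entered the counting is not given in the sources used here, so reads of WT1 and WT1-AS may not have been told apart.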
